A study of Mus musculus with 12 samples.

Results

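The antiviral genes that cells switch on in response to type I interferon were followed across 3 groups of mouse macrophage arrays. The list holds 36 genes, chosen as interferon-stimulated genes without the interferon regulatory factors, STAT proteins, chemokines and the GBP and IRG families of GTPases. A probe was found for 32 of them, and 31 passed the filter on dim signal, out of 20862 genes tested. Mx1, Mx2, Oas1b and Ifi203 had no matched probe, so their signals were not analysed here, and Ifi203 enters only the counts of promoter windows. Ifi44 was well above background on 1 of 12 arrays, an IL4 array, and failed the filter.

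The groups were macrophages given 10 ng/ml IL4 together with 50 µM emodin, an anthraquinone made by plants, macrophages given 10 ng/ml IL4 alone, and macrophages given the vehicle. Each group had 4 arrays. All cells were adherent peritoneal macrophages of wild type C57BL/6 mice aged 8 weeks, kept overnight without serum before treatment. Treatment lasted 6 h by the sample descriptions and overnight by the protocol, so its duration is unsettled. The labels do not say whether the 4 samples of a group came from separate mice or from a pool, so p-values measure the spread between samples, which may be technical.

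Type I interferons bind a receptor made of the chains IFNAR1 and IFNAR2, and the kinases TYK2 and JAK1 then pass the signal to transcription factors. A complex that holds STAT2 and IRF9 binds the interferon-stimulated response element in the promoters of target genes. The products of those genes sense viral nucleic acid, degrade or trap viral RNA, block entry and budding, and attach ubiquitin, the ubiquitin-like protein ISG15 or ADP-ribose to other proteins. Macrophages hold many of these transcripts at a basal level without infection, and IL4 is better known for the alternative activation of macrophages through STAT6.

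RefSeq promoter windows, 250 bases before to 50 after a gene's start, were at hand for 26 of the 36 genes (31 windows, build GRCm38.p6). The core of the response element, GAAANNGAAA searched on both strands with overlapping matches allowed, was in 15 of the 31 windows (48.4%), against 3.44% of the 32851 windows of all genes. By gene, 14 of the 26 (53.8%) held a match, against 3.99% of 27025 genes. The gamma-activated site TTCNNNGAA, its own reverse complement, was in windows of 7 of the 26 genes (26.9%), against 9.55% of all genes. The windows below belong to genes whose values are contrasted further on: Isg15, the ubiquitin-like modifier itself, Ifit3, the one of the 31 genes lowered most by IL4, the neighbours Rsad2 and Cmpk2, and the ubiquitin ligases Trim21 and Trim25. Capitals mark GAAANNGAAA, or TTTCNNTTTC where it lies on the other strand, and each sequence runs 5′ to 3′ on the strand of its gene.
Isg15: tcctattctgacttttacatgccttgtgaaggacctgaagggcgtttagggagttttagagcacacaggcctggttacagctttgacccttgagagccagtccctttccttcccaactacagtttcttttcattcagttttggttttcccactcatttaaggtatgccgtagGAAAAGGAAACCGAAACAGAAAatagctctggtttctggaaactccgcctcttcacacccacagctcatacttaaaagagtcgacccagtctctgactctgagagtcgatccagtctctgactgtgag
Ifit3: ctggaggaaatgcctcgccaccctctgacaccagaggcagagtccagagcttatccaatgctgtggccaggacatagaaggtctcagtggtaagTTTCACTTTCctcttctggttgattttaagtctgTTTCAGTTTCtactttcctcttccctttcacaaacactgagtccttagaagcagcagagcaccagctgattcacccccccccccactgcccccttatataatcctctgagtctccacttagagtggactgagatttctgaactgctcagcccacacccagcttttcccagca
Rsad2: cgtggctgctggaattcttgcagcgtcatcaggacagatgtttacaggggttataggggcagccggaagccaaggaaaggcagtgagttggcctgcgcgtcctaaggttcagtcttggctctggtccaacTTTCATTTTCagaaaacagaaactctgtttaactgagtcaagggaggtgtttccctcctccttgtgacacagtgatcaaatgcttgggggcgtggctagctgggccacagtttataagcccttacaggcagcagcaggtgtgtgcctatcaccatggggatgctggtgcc
Cmpk2: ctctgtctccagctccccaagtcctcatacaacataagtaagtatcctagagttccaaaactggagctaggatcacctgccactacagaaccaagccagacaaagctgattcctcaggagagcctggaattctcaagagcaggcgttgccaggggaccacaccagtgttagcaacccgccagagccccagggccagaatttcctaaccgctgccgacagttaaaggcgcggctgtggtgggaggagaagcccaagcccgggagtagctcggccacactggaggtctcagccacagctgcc
Trim21: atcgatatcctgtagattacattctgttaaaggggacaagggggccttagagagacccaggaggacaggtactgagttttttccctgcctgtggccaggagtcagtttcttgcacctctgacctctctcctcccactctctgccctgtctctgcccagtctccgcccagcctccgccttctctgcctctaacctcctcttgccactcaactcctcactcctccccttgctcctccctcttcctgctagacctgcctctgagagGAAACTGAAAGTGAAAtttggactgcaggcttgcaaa
Trim25: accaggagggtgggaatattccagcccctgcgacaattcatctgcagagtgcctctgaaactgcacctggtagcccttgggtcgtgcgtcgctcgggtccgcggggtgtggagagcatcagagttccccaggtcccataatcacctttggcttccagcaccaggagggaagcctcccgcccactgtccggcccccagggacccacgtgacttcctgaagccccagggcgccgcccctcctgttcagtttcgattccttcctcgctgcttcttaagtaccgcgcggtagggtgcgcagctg
The Isg15 window is chr4:156200769-156201068 on the minus strand, that of Ifit3 chr19:34583279-34583578 on the plus strand, and that of Rsad2 chr12:26456403-26456702 on the minus strand. The Cmpk2 window is chr12:26468965-26469264 on the plus strand, that of Trim21 chr7:102565433-102565732 on the minus strand, and that of Trim25 chr11:88999153-88999452 on the plus strand. In Isg15, 3 overlapping matches begin at positions -78, -72 and -66, counted from 0 at the start base. Ifit3 has 2 matches on the other strand, and Rsad2 has 1. The 2 overlapping matches of Trim21 lie after the start, from 13 and from 19. The letters are in neither the Cmpk2 nor the Trim25 window.

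All levels are log2 signals relative to the 75th percentile of the same array, so a level of 0 equals that percentile and a difference of 1 is a 2-fold change. They compare arrays for the same probe, not genes with each other. Differences were tested with limma over 20862 genes, with Benjamini-Hochberg adjustment, and genes with an adjusted p below 0.05 are named as called. The share of probes well above background was 47.17 to 49.51% on emodin arrays, 51.04 to 53.11% on IL4 arrays and 49.66 to 50.8% on control arrays. The 4 emodin arrays lay on a slide of their own, and the IL4 arrays lay in another slide row than the control arrays. Emodin and its slide therefore cannot be told apart, nor can IL4 and its row. Of the macrophage markers, 8 of 8 with a probe were well above background on all 12 arrays. The series' own design text names white cells of the blood and neutrophils instead, and 4 of 7 neutrophil markers were above background on all 12 arrays, with Ngp on none. Replicates 1 and 2 of each group are labelled female and 3 and 4 male, but 5 probes of 4 genes of the Y chromosome were above background on 0 of 12 arrays and both Xist probes on all 12. This goes against the label of the 6 arrays labelled male. Between arrays labelled male and female, limma called 0 of 20862 genes (0%; smallest adjusted p = 0.0547), none of them a listed gene. At an unadjusted p below 0.05, 1931 genes and 1 listed gene differed.

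With IL4 alone some interferon-stimulated genes were higher and others lower than in control. Against control, 7 of 31 were higher (Dtx3l, Ifi204, Oas1a, Parp9, Samhd1, Usp18 and Zbp1) and 4 were lower (Ifit3, Isg20, Oasl1 and Rsad2). The nucleic acid sensor Zbp1 rose most, 2.38-fold, and the RNA-binding Ifit3 fell most, 2.36-fold. Those 11 of 31 stand against 17.5% of all genes called, with 8.98% called higher and 8.56% lower. The median log2 difference was -0.03 over the 31 genes and -0.03 over all genes. In 8 genes all 4 IL4 arrays lay above all 4 control arrays, and in 5 below, against 12.1% and 12.8% of all genes. The lower count dropped to 2 without control replicate 2, without IL4 replicate 1 or without IL4 replicate 4, and to 1 with the arrays scaled on the spike-in controls. With the replicate number as a block the counts were 8 higher and 7 lower. The block added Ifit1 (adjusted p = 0.0119), Ifit2 (adjusted p = 0.00458) and Ifitm3 (adjusted p = 0.02) to the lower genes and Parp14 (adjusted p = 0.0263) to the higher ones.

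Most of the list was lower with emodin than with IL4 alone. Of the 31 genes, 20 were lower, 10 of them at least 2-fold, and 4 were higher (Trim25, Ifit1, Ifitm3 and Isg20). Emodin moved a large part of the array, with 65.9% of all genes called, so the count of 24 called genes is near that background. By direction, higher calls made up 39.4% of the array and lower calls 26.5%. At 2-fold or more, 9.87% of all genes were lower and 8.47% higher, 1 of the 31 genes (Trim25) being 2-fold higher. The median difference was -0.79 for the 31 genes, against 0.17 for all genes. All 4 emodin arrays lay below all 4 IL4 arrays in 19 genes and above them in 4, against 24.4% and 35.9% of all genes. With quantile scaling, 22 were lower and 5 higher, and the medians were -0.76 and 0.02. Scaled on the spike-in controls, which moved the median of all genes by -1.09, 30 were lower and 1 was higher, and the medians were -1.88 and -0.92. On that scale 80.7% of all genes were called lower and 3.46% higher. Ifit1, Ifitm3 and Isg20 then turned lower, and Trim25 stayed higher.

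Against control, IL4 with emodin gave 21 lower genes, 9 of them at least 2-fold, and 2 higher (Trim25 and Bst2). The background over the whole array was 62.9% called, with 25.6% lower and 37.3% higher. At 2-fold or more, 8.83% of all genes were lower and 7.82% higher, 1 of the 31 genes (Trim25) being 2-fold higher. The median was -0.59 for the 31 genes, against 0.15 for all genes. All 4 emodin arrays lay below all 4 control arrays in 19 genes and above in 2, against 22.2% and 32% of all genes. The comparisons share arrays, so their counts are not independent of each other. In RNA from a whole culture, fewer cells of a kind and less RNA per cell cannot be told apart.

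**Figure D1:**
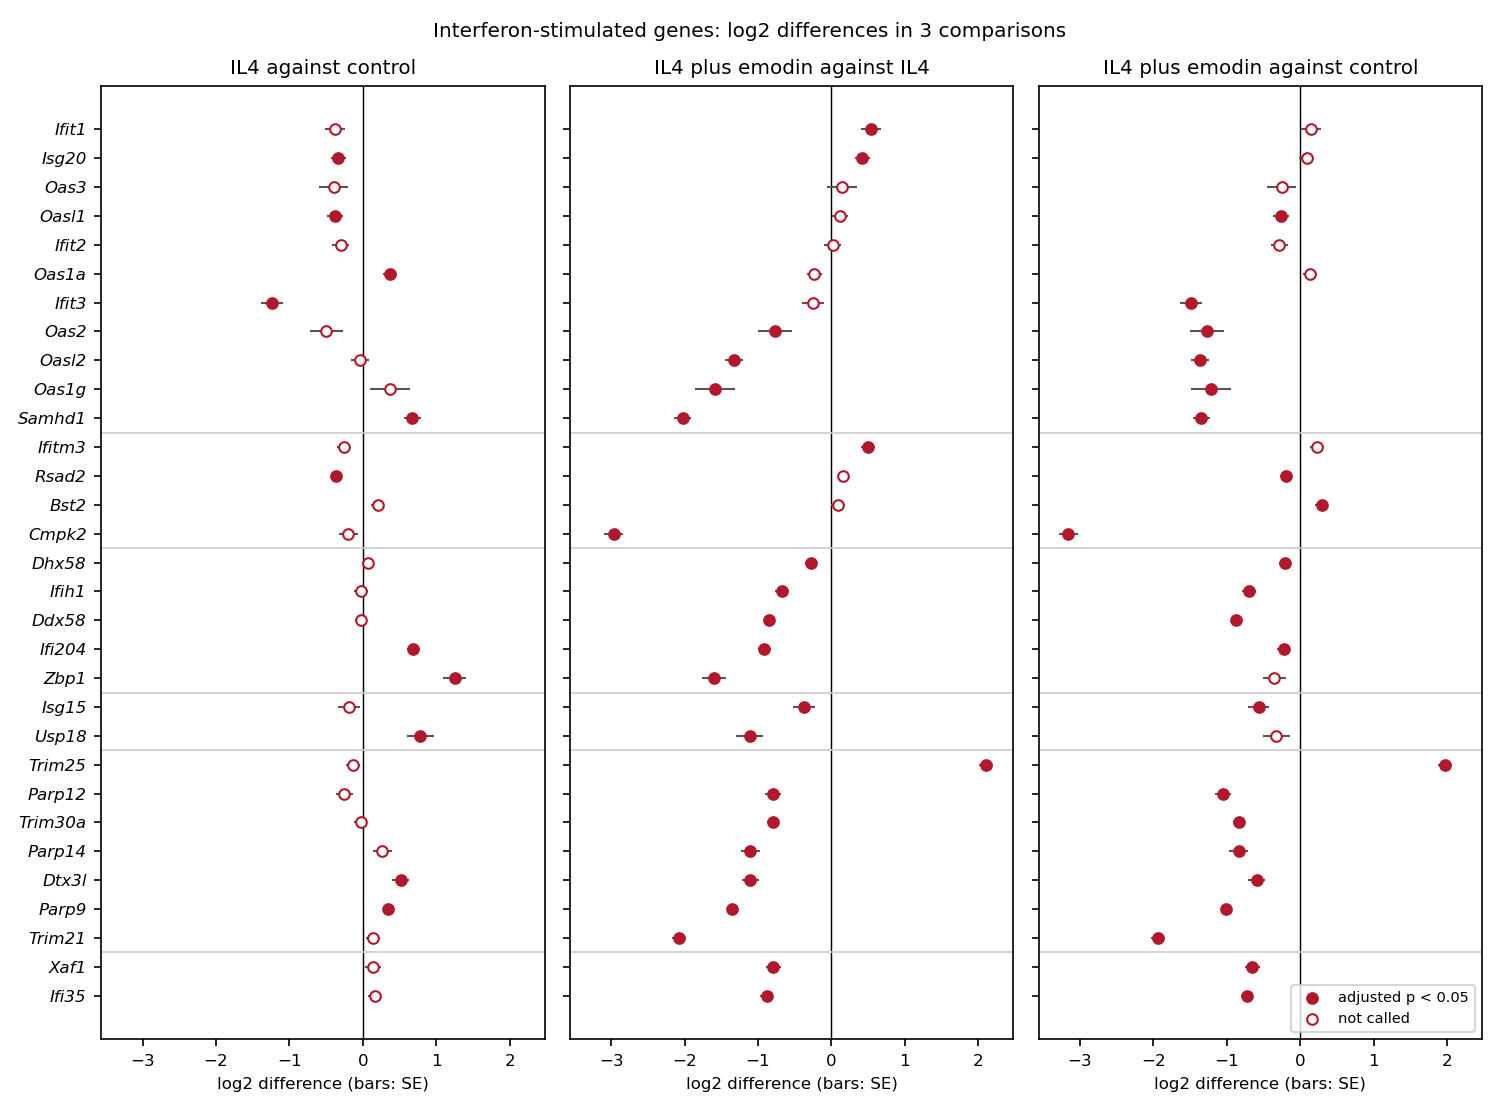
Log2 difference with its SE (x axis) for the 31 interferon-stimulated genes (y axis, grouped by role, from RNA effectors at the top to Xaf1 and Ifi35 at the bottom) in IL4 against control, IL4 plus emodin against IL4 and IL4 plus emodin against control; filled points are called. In the middle panel 20 genes are called lower and 4 higher, with Cmpk2 at -2.97 and Trim25 at 2.11 as the extremes.

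The first role group holds proteins that bind or cut RNA, make the second messenger 2-5A, or limit the nucleotides that viruses need. With emodin 4 of its 11 tested genes were lower than with IL4 (Samhd1, Oas1g, Oasl2 and Oas2) and 2 were higher (Ifit1 and Isg20, both turning lower on the spike-in scale), against 26.5% and 39.4% of all genes. IL4 alone raised 2 (Samhd1 and Oas1a) and lowered 3 (Ifit3, Isg20 and Oasl1), against 8.98% and 8.56% of all genes. Samhd1, a triphosphohydrolase that depletes deoxynucleotides, had log2 levels of 3.39, 3.41, 3.17 and 3.27 on the IL4 plus emodin arrays, 5.64, 5.23, 5.17 and 5.29 on the IL4 arrays and 4.90, 4.57, 4.59 and 4.56 on the control arrays. No group overlapped another, with IL4 highest and emodin lowest. The difference was 0.68 ± 0.12 (SE; adjusted p = 0.00166) for IL4 against control, -2.02 ± 0.12 (SE; adjusted p = 4.59e-08) for emodin against IL4 and -1.35 ± 0.12 (SE; adjusted p = 1.28e-06) for emodin against control. A second Samhd1 probe moved the same way, by 0.48, -1.21 and -0.73.

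Ifit1 binds viral RNA whose cap lacks methyl groups, Ifit2 and Ifit3 are its relatives, and the genes lie in a cluster. Ifit3 had log2 levels of -2.08, -2.54, -2.63 and -2.29 on the IL4 plus emodin arrays, -2.15, -2.16, -2.20 and -2.02 on the IL4 arrays and -1.10, -0.69, -1.16 and -0.63 on the control arrays. Every IL4 and every emodin array lay below all control arrays, while emodin and IL4 arrays overlapped. Ifit3 differed by -1.24 ± 0.15 (SE; adjusted p = 0.000102) between IL4 and control, and by -0.25 ± 0.15 (SE; adjusted p = 0.148) between emodin and IL4. Emodin against control gave -1.49 ± 0.15 (SE; adjusted p = 3.57e-06). Ifit1 had log2 levels of -1.53, -1.40, -1.71 and -1.18 on the IL4 plus emodin arrays, -2.02, -1.91, -2.06 and -1.98 on the IL4 arrays and -1.66, -1.51, -1.94 and -1.32 on the control arrays. The emodin arrays were above all IL4 arrays and overlapped the control arrays. Ifit1 was 0.54 ± 0.14 (SE; adjusted p = 0.00411) higher with emodin than with IL4, and -0.38 from control in IL4 alone (adjusted p = 0.0751). Ifit2 differed by 0.02 ± 0.12 (SE; adjusted p = 0.915) between emodin and IL4, with overlapping groups. Near-identical copies of Ifit3 and of Oas1a exist in the mouse genome, so their probes, like that of Oas1g, may read more than 1 gene.

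The oligoadenylate synthetases make 2-5A, which activates the ribonuclease RNase L. Oasl2, a family member with ubiquitin-like domains, had log2 levels of 1.23, 1.64, 1.24 and 1.60 on the IL4 plus emodin arrays, 2.80, 2.67, 2.62 and 2.93 on the IL4 arrays and 2.82, 2.84, 2.54 and 2.93 on the control arrays. The emodin arrays lay below all others, and IL4 and control overlapped. The difference of emodin was -1.33 ± 0.12 (SE; adjusted p = 2.27e-06) from IL4 and -1.36 ± 0.12 (SE; adjusted p = 1.93e-06) from control. Its neighbour Oasl1, which in mice restrains translation of Irf7, differed by 0.12 ± 0.10 (SE; adjusted p = 0.337) between emodin and IL4. In IL4 alone Oasl1 was -0.38 ± 0.10 (SE; adjusted p = 0.0262) from control, a call lost without control replicate 2 or 3, without IL4 replicate 1 or 4 or on the spike-in scale.

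Oas1g had log2 levels of -4.31, -4.43, -3.46 and -5.24 on the IL4 plus emodin arrays, -2.72, -2.75, -2.68 and -2.94 on the IL4 arrays and -3.24, -2.97, -3.32 and -3.05 on the control arrays. Its probe was well above background on 1 of 4 emodin arrays and on all the others, so the emodin levels are near the background. The emodin arrays lay below all others, at -1.59 ± 0.28 (SE; adjusted p = 0.00032) against IL4. Oas2 had log2 levels of -1.14, -0.54, -1.27 and -1.12 on the IL4 plus emodin arrays, -0.09, -0.25, -0.76 and 0.12 on the IL4 arrays and 0.55, 0.04, -0.18 and 0.59 on the control arrays. Its emodin arrays lay below all control arrays, at -1.27 ± 0.23 (SE; adjusted p = 0.000483), and overlapped the IL4 arrays, at -0.77 ± 0.23 (SE; adjusted p = 0.011). Oas1a, the close relative of Oas1g, had log2 levels of 6.39, 6.56, 6.58 and 6.47 on the IL4 plus emodin arrays, 6.87, 6.89, 6.64 and 6.53 on the IL4 arrays and 6.30, 6.53, 6.33 and 6.31 on the control arrays. IL4 replicates 1 to 3 lay clearly above the control arrays and IL4 replicate 4 was level with the highest control. IL4 raised it by 0.37 ± 0.10 (SE; adjusted p = 0.0215), a call lost without control replicate 3 or 4 or without IL4 replicate 1 or 2. Emodin against IL4 was -0.23 ± 0.10 (SE; adjusted p = 0.0519), and was called under 10 of 22 alternatives, over which Oas1a gave adjusted p-values of 1.41e-07 (-1.32, spike-in scaling) to 0.148. Oas3 was not called in any comparison, and its values spread widely within groups. Isg20, an exonuclease of single-stranded RNA, had log2 levels of 1.92, 2.07, 2.16 and 2.20 on the IL4 plus emodin arrays, 1.62, 1.76, 1.71 and 1.56 on the IL4 arrays and 1.75, 2.16, 1.98 and 2.09 on the control arrays. Its emodin arrays lay above all IL4 arrays. The difference was 0.42 ± 0.10 (SE; adjusted p = 0.003) against IL4, and IL4 alone was -0.33 ± 0.10 (SE; adjusted p = 0.0417) from control. That call was lost without any 1 of the IL4 arrays, without control replicate 2, 3 or 4, without emodin replicate 2, on the spike-in scale or with only those groups in the fit.

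The second group acts at membranes and on nucleotides. Cmpk2, a mitochondrial nucleotide kinase, showed the largest fall of the list. It had log2 levels of -3.42, -3.83, -3.27 and -3.09 on the IL4 plus emodin arrays, -0.45, -0.47, -0.35 and -0.47 on the IL4 arrays and -0.25, -0.20, -0.32 and -0.20 on the control arrays. The emodin arrays stood far below both other groups. Cmpk2 was 7.81-fold lower with emodin than with IL4, at -2.97 ± 0.13 (SE; adjusted p = 5.38e-09), and 8.94-fold lower than control, at -3.16 ± 0.13 (SE; adjusted p = 3.32e-09). Its probe was well above background on 3 of 4 emodin arrays and on all the others. The second Cmpk2 probe, well above background on 2 of 4 emodin arrays, gave -2.48 against IL4.

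Rsad2, or viperin, makes a chain-terminating nucleotide from CTP and lies beside Cmpk2, with the 2 genes pointing away from each other. Rsad2 had log2 levels of 1.51, 1.53, 1.43 and 1.33 on the IL4 plus emodin arrays, 1.29, 1.37, 1.29 and 1.21 on the IL4 arrays and 1.70, 1.71, 1.52 and 1.67 on the control arrays. Emodin and IL4 arrays overlapped, at 0.16 ± 0.07 (SE; adjusted p = 0.0747), while every IL4 array was below every control array, at -0.36 ± 0.07 (SE; adjusted p = 0.0056). On the same emodin arrays the difference from IL4 was -2.97 for Cmpk2 and 0.16, not called, for Rsad2. Over 22 alternatives the adjusted p of Rsad2 ran from 2.45e-05 to 0.17. Rsad2 was called higher with quantile scaling (0.20), with normexp and quantile scaling (0.23), in the authors' deposited values (0.20), with the replicate block, with the sex label as a covariate and without emodin replicate 4 (0.20). On the spike-in scale Rsad2 was called lower, at -0.92.

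Ifitm3, which blocks viral fusion in endosomes, had log2 levels of 6.39, 6.72, 6.67 and 6.73 on the IL4 plus emodin arrays, 6.06, 6.18, 6.18 and 6.10 on the IL4 arrays and 6.23, 6.51, 6.50 and 6.33 on the control arrays. The emodin arrays were above all IL4 arrays, at 0.50 ± 0.10 (SE; adjusted p = 0.000692). The call for Ifitm3 was lost after normexp correction with quantile scaling, and the direction turned on the spike-in scale. Bst2, or tetherin, which holds budding virions at the cell surface, had log2 levels of 5.31, 5.45, 5.54 and 5.50 on the IL4 plus emodin arrays, 5.38, 5.46, 5.31 and 5.29 on the IL4 arrays and 4.95, 5.30, 5.24 and 5.14 on the control arrays. It was called against control alone, at 0.29 ± 0.09 (SE; adjusted p = 0.0133), with all emodin arrays above all control arrays. That call was lost with quantile scaling, and the direction turned on the spike-in scale.

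**Figure D2:**
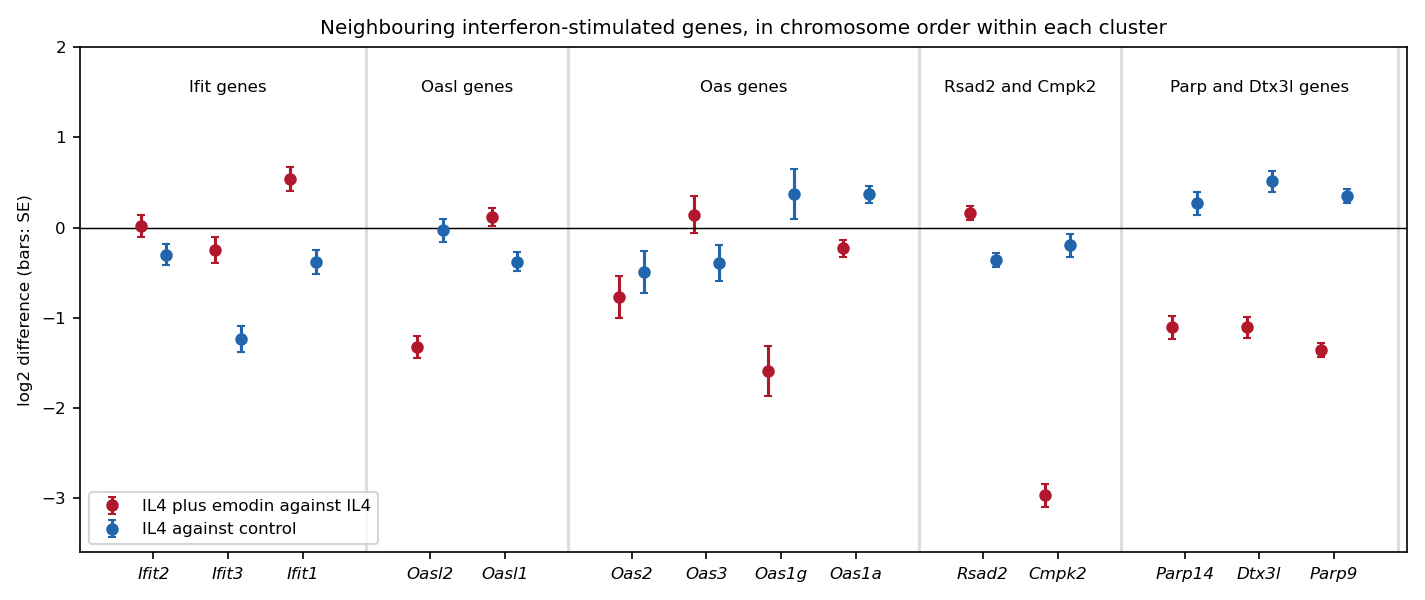
Log2 difference with its SE (y axis) of neighbouring interferon-stimulated genes (x axis, in chromosome order within each of 5 clusters), for IL4 plus emodin against IL4 in red and IL4 against control in blue. Rsad2 sits at 0.16 and Cmpk2 at -2.97 with emodin, whereas Parp14, Dtx3l and Parp9 sit together between -1.35 and -1.11.

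In the sensor group of the list, 5 of 5 tested genes were lower with emodin than with IL4, against 26.5% of all genes. IL4 alone raised 2 of them, against 8.98% of all genes. Sensors of the wider pathway, given further on, did not all move this way. Zbp1, which binds Z-form nucleic acid and can start necroptosis, had log2 levels of 1.36, 1.82, 1.82 and 1.88 on the IL4 plus emodin arrays, 3.37, 3.54, 3.20 and 3.17 on the IL4 arrays and 1.68, 2.36, 2.20 and 2.05 on the control arrays. IL4 stood above both other groups without overlap, while emodin and control overlapped. Zbp1 differed by 1.25 ± 0.16 (SE; adjusted p = 0.000169) for IL4 against control, -1.60 ± 0.16 (SE; adjusted p = 3.5e-06) for emodin against IL4 and -0.35 ± 0.16 (SE; adjusted p = 0.0718) for emodin against control. A second probe gave 1.62, -2.10 and -0.48. The difference of Zbp1 from control was called when its probes were averaged (-0.41), on the spike-in scale (-1.31), with the replicate block and without control replicate 1 (-0.48), and its adjusted p ran from 3.15e-06 to 0.202 over 22 alternatives.

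Ifi204, a DNA sensor of the p200 family, had log2 levels of 5.87, 5.87, 5.56 and 5.91 on the IL4 plus emodin arrays, 6.81, 6.77, 6.58 and 6.70 on the IL4 arrays and 6.03, 6.06, 5.99 and 6.04 on the control arrays. The 3 groups did not overlap, with IL4 highest. IL4 raised it by 0.69 ± 0.09 (SE; adjusted p = 0.000195) and emodin was -0.91 ± 0.09 (SE; adjusted p = 3e-06) from IL4. Against control the emodin difference was -0.23 ± 0.09 (SE; adjusted p = 0.0418), a call lost without any 1 of the control arrays, without IL4 replicate 2 or 4, without emodin replicate 3, with no filter on dim probes or with only those groups in the fit. The gene has close relatives in its cluster, so its probe may read more than 1.

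The RNA helicases of the sensor group were not called with IL4 alone and were lower with emodin. Ddx58, or RIG-I, had log2 levels of 1.40, 1.59, 1.53 and 1.54 on the IL4 plus emodin arrays, 2.31, 2.34, 2.34 and 2.44 on the IL4 arrays and 2.37, 2.25, 2.40 and 2.52 on the control arrays. The emodin arrays lay below all others, at -0.85 ± 0.08 (SE; adjusted p = 1.54e-06) against IL4. A second Ddx58 probe, well above background on 2 of 4 emodin arrays, gave -0.56. Ifih1, or MDA5, had log2 levels of 1.46, 1.56, 1.42 and 1.21 on the IL4 plus emodin arrays, 2.20, 2.05, 2.00 and 2.08 on the IL4 arrays and 2.28, 2.05, 2.01 and 2.09 on the control arrays. Emodin was again below both other groups, at -0.67 ± 0.09 (SE; adjusted p = 5.09e-05) against IL4. A second Ifih1 probe was not well above background on any emodin array but was on all the others. For IL4 against control it gave 0.50, where the first gave -0.02. Dhx58, or LGP2, which modulates the other 2 helicases, had log2 levels of 0.69, 0.56, 0.65 and 0.51 on the IL4 plus emodin arrays, 0.70, 0.95, 0.95 and 0.95 on the IL4 arrays and 0.81, 0.81, 0.78 and 0.86 on the control arrays. Every emodin array was below every IL4 and control array, by little for some, at -0.28 ± 0.08 (SE; adjusted p = 0.00668) against IL4. Against control the difference was -0.21 ± 0.08 (SE; adjusted p = 0.0313), a call lost without control replicate 1, 2 or 4, without emodin replicate 2 or 4, with quantile scaling or in the authors' deposited values.

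The ISG15 system attaches a ubiquitin-like modifier and takes it off again. Usp18 removes ISG15 and also blocks signalling at the interferon receptor. It had log2 levels of 1.40, 0.92, 1.56 and 0.77 on the IL4 plus emodin arrays, 2.51, 2.32, 2.41 and 1.86 on the IL4 arrays and 1.65, 1.47, 1.43 and 1.41 on the control arrays. All IL4 arrays were above all others, and emodin and control overlapped. Usp18 was 0.78 ± 0.18 (SE; adjusted p = 0.0111) in IL4 against control and -1.11 ± 0.18 (SE; adjusted p = 0.000216) in emodin against IL4. Isg15 itself had log2 levels of 2.48, 2.81, 2.76 and 2.84 on the IL4 plus emodin arrays, 3.02, 3.29, 3.16 and 2.92 on the IL4 arrays and 2.90, 3.59, 3.44 and 3.21 on the control arrays. The emodin arrays were below all others, at -0.38 ± 0.15 (SE; adjusted p = 0.0396) against IL4 and -0.57 ± 0.15 (SE; adjusted p = 0.00519) against control. The call against IL4 was lost without IL4 replicate 1, 2 or 3 or without emodin replicate 1 or 3, with no filter on dim probes, and when its 2 probes were averaged.

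**Figure D3:**
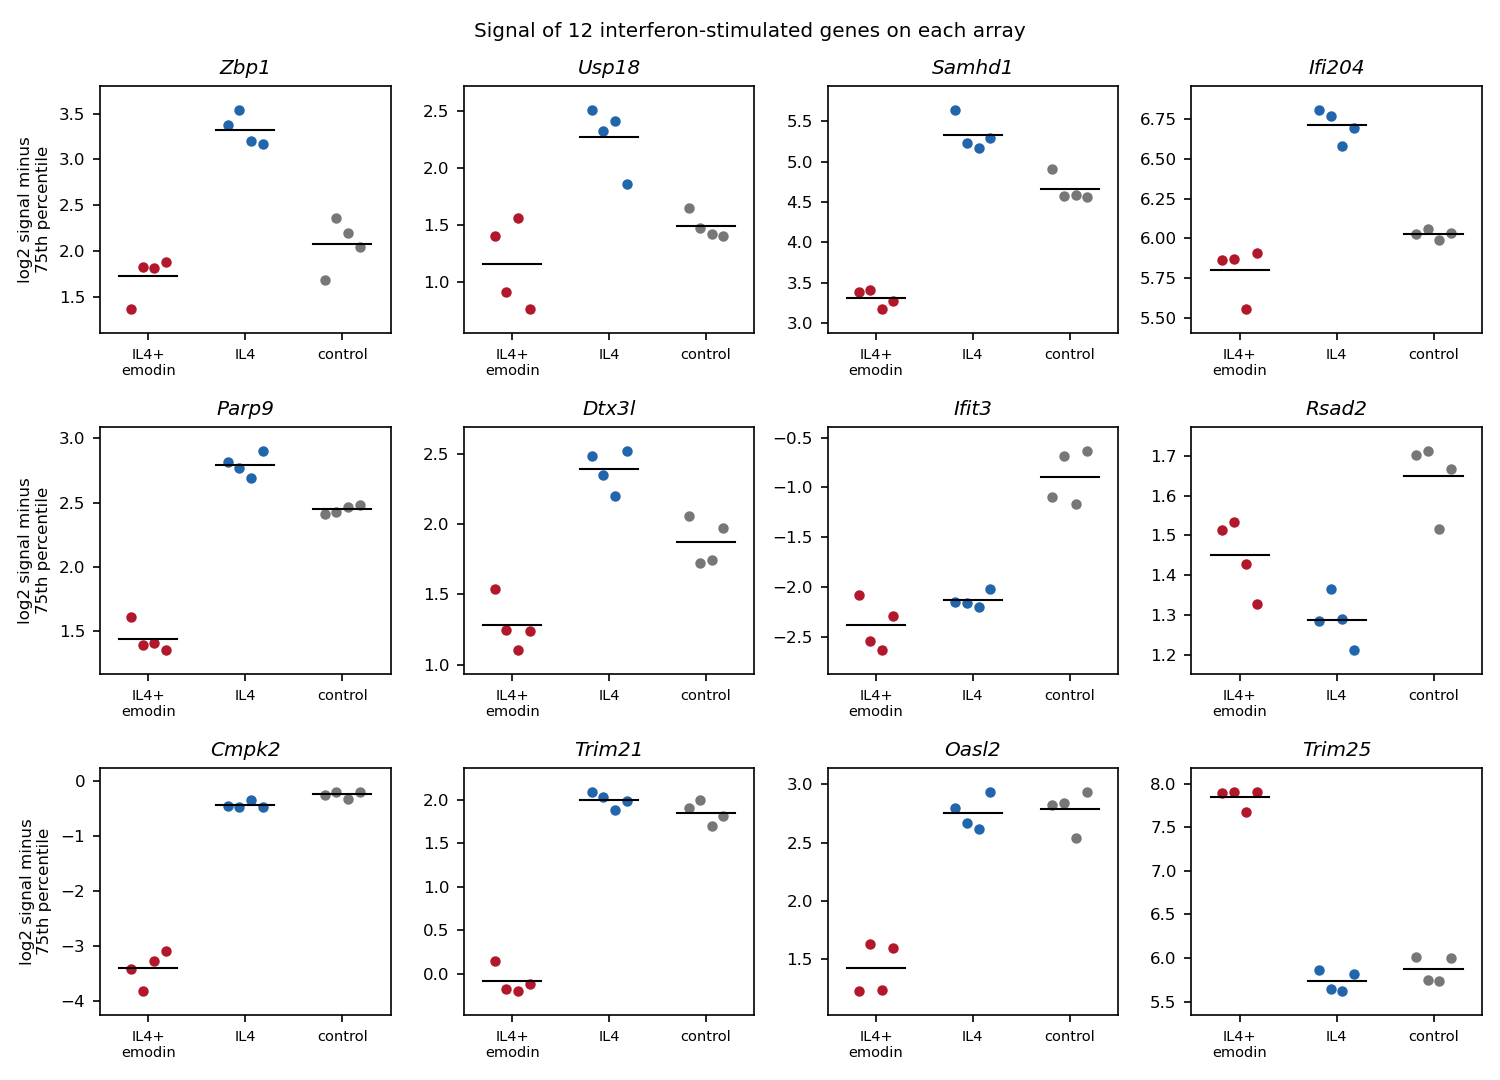
Log2 signal minus the array's 75th percentile (y axis, own range in each panel) for 12 interferon-stimulated genes on the IL4 plus emodin, IL4 and control arrays (x axis, left to right); points are arrays, n = 4 a group, and lines are means. Zbp1, Usp18, Samhd1 and Ifi204 are highest on IL4 arrays, and Cmpk2, Trim21 and Oasl2 are low on emodin arrays alone, where Trim25 is high.

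Of the ubiquitin ligases and ADP-ribosyltransferases, 6 of 7 were lower and 1 was higher with emodin, against both IL4 and control. Of all genes, 26.5% were lower and 39.4% higher than with IL4, and 25.6% lower and 37.3% higher than control. Trim21, an intracellular antibody receptor and ubiquitin ligase, had log2 levels of 0.14, -0.17, -0.20 and -0.11 on the IL4 plus emodin arrays, 2.09, 2.03, 1.89 and 1.98 on the IL4 arrays and 1.90, 2.00, 1.70 and 1.81 on the control arrays. Emodin arrays were far below the rest, at -2.08 ± 0.10 (SE; adjusted p = 8.06e-09) against IL4, a 4.23-fold fall, and IL4 and control overlapped. Trim25, the ligase that activates RIG-I, had log2 levels of 7.89, 7.90, 7.67 and 7.90 on the IL4 plus emodin arrays, 5.87, 5.64, 5.62 and 5.82 on the IL4 arrays and 6.01, 5.75, 5.74 and 6.00 on the control arrays. The emodin arrays stood above all others, at 2.11 ± 0.10 (SE; adjusted p = 8.06e-09) against IL4, a 4.31-fold rise. On the spike-in scale the log2 difference of Trim25 was 1.02. Of the 31 genes it was the one raised at least 2-fold by emodin.

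Parp9 and Dtx3l form a complex of an ADP-ribosyltransferase and a ubiquitin ligase, and their genes are neighbours. Parp9 had log2 levels of 1.61, 1.39, 1.41 and 1.35 on the IL4 plus emodin arrays, 2.82, 2.77, 2.69 and 2.90 on the IL4 arrays and 2.41, 2.43, 2.47 and 2.48 on the control arrays. Dtx3l had log2 levels of 1.53, 1.25, 1.10 and 1.24 on the IL4 plus emodin arrays, 2.48, 2.35, 2.20 and 2.52 on the IL4 arrays and 2.06, 1.72, 1.74 and 1.97 on the control arrays. In both genes the 3 groups were apart, IL4 highest and emodin lowest. Parp9 was 0.35 ± 0.08 (SE; adjusted p = 0.0076) with IL4 against control and -1.35 ± 0.08 (SE; adjusted p = 3.8e-08) with emodin against IL4. Dtx3l was 0.51 ± 0.12 (SE; adjusted p = 0.00909) and -1.11 ± 0.12 (SE; adjusted p = 5.68e-06) in the same comparisons. A second Dtx3l probe gave 0.58 and -0.44, and for emodin against control 0.14 where the first gave -0.59. The call against control was lost when the probes were averaged.

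Parp14, a transferase reported to act with STAT6, had log2 levels of 2.97, 2.70, 2.43 and 2.53 on the IL4 plus emodin arrays, 3.94, 3.72, 3.63 and 3.75 on the IL4 arrays and 3.72, 3.37, 3.31 and 3.57 on the control arrays. The emodin arrays were below all others, at -1.11 ± 0.13 (SE; adjusted p = 1.45e-05) against IL4, and IL4 and control overlapped. Parp12, which restrains viral translation, had log2 levels of 0.02, 0.11, 0.12 and 0.35 on the IL4 plus emodin arrays, 1.07, 0.66, 0.87 and 1.19 on the IL4 arrays and 1.23, 1.17, 1.23 and 1.16 on the control arrays. Emodin was lowest without overlap, at -0.80 ± 0.11 (SE; adjusted p = 5.89e-05) against IL4. Trim30a, a mouse inhibitor of Toll-like receptor signalling, had log2 levels of 1.23, 1.01, 0.97 and 0.99 on the IL4 plus emodin arrays, 1.88, 1.94, 1.72 and 1.85 on the IL4 arrays and 1.90, 1.95, 1.74 and 1.93 on the control arrays. Emodin arrays were below the rest here too, at -0.80 ± 0.08 (SE; adjusted p = 5.8e-06), and IL4 and control overlapped.

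Xaf1 and Ifi35 belong to none of these groups. Ifi35, a leucine zipper protein, had log2 levels of 1.69, 1.77, 1.97 and 1.85 on the IL4 plus emodin arrays, 2.65, 2.80, 2.71 and 2.64 on the IL4 arrays and 2.40, 2.68, 2.60 and 2.49 on the control arrays. Xaf1, which binds the apoptosis inhibitor XIAP, had log2 levels of 0.77, 1.10, 1.03 and 0.81 on the IL4 plus emodin arrays, 1.81, 1.84, 1.60 and 1.63 on the IL4 arrays and 1.51, 1.78, 1.49 and 1.55 on the control arrays. In both genes the emodin arrays lay below all others, and IL4 and control overlapped. Emodin against IL4 was -0.88 ± 0.09 (SE; adjusted p = 3.44e-06) for Ifi35 and -0.79 ± 0.10 (SE; adjusted p = 3.29e-05) for Xaf1. A second Xaf1 probe was not well above background on any emodin array.

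Genes with and without the response element core can be set side by side. Of the 13 tested genes with a match in their window, 6 were lower and 2 higher than with IL4, with a median difference of -0.25 and a range of -2.08 to 0.54. Of the 11 tested genes with a window and no match, 7 were lower and 2 higher, with a median of -0.80 and a range of -2.97 to 2.11. Over all genes, 26.5% were lower and 39.4% higher. A match in letters is not a site in use, and its absence covers these 300 bases alone. Both ends of the second range, Cmpk2 and Trim25, are among the windows printed above without capitals.

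Variation within groups was small for most of these genes. The median within-group SD was 0.14 for the 31 genes and 0.17 for all genes. It was 0.44 for Oas1g, 0.36 for Oas2, 0.31 for Oas3 and 0.28 for Usp18, and 0.08 for Rsad2.

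**Figure D4:**
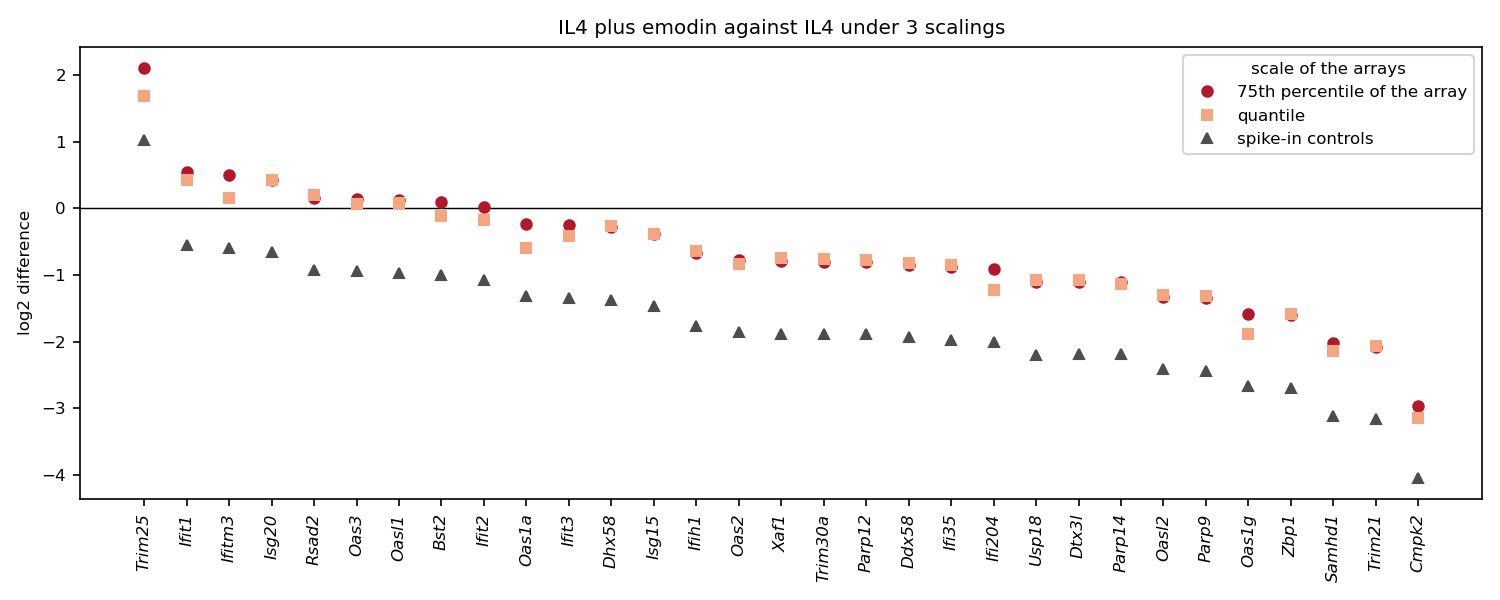
Log2 difference of IL4 plus emodin against IL4 (y axis) for the 31 genes (x axis, ordered by the main value) with the arrays scaled on their 75th percentile, by quantiles and on the spike-in controls. The spike-in values lie lower for every gene, with Trim25 at 1.02 the one above 0.

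The other genes of the pathway were read from a list of 39, of which 36 were tested. With IL4 alone 7 were higher and 3 lower than in control, against 8.98% and 8.56% of all genes. With emodin 8 were higher and 18 lower than with IL4, against 39.4% and 26.5% of all genes, and 14 were higher and 16 lower than in control, against 37.3% and 25.6%. On the spike-in scale the counts against IL4 were 2 higher and 29 lower, against 3.46% and 80.7% of all genes. The ligand gene Ifnb1 was well above background on the 4 emodin arrays alone, with 0 of 4 IL4 and 0 of 4 control arrays. Its log2 levels on the emodin arrays were -3.44, -2.79, -3.23 and -2.43. Its probe passed the filter through the emodin arrays alone, so no test of it is given. The counts of genes higher with emodin above include Ifnb1, so they are not free of that selection. On the spike-in scale the 2 higher genes were Ifnb1 and Socs3. Ifnb1 was at least 3.53-fold higher with emodin than with IL4 and at least 3.29-fold higher than control, and on the spike-in scale these bounds were 1.66-fold and 1.69-fold. The bound takes the lowest signal well above background on each array as the level of the dim group. Ifna1 and Ifna2 were 0.81 and 0.97 higher than with IL4, but -0.27 and -0.12 on the spike-in scale. Their probes may read other genes of the closely related interferon alpha family.

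Downstream of the ligands, the receptor chain Ifnar2 had log2 levels of 6.15, 6.13, 6.09 and 6.25 on the IL4 plus emodin arrays, 4.92, 5.02, 4.91 and 4.88 on the IL4 arrays and 4.73, 4.99, 4.89 and 4.88 on the control arrays. All emodin arrays were above all others, at 1.22 ± 0.07 (SE; adjusted p = 6.96e-08) against IL4, a difference that shrank to 0.14 and was not called on the spike-in scale. Stat2 had log2 levels of 1.56, 1.37, 1.33 and 1.37 on the IL4 plus emodin arrays, 2.96, 2.78, 2.72 and 3.04 on the IL4 arrays and 2.49, 2.33, 2.33 and 2.46 on the control arrays. Irf9, its partner, had log2 levels of 2.00, 1.97, 1.84 and 1.84 on the IL4 plus emodin arrays, 3.05, 3.05, 2.93 and 3.08 on the IL4 arrays and 2.97, 3.03, 2.99 and 3.05 on the control arrays. In both, emodin arrays lay below all others, at -1.47 ± 0.09 (SE; adjusted p = 7.55e-08) for Stat2 and -1.12 ± 0.07 (SE; adjusted p = 6.32e-08) for Irf9 against IL4.

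Among the sensors and adaptors, 8 of 13 were lower and 2 higher than with IL4, against 26.5% and 39.4% of all genes, so the 10 of 13 called are near the 65.9% called over the array. The RNA-dependent kinase Eif2ak2, or PKR, fell by 2.33 ± 0.07 (SE; adjusted p = 7.22e-10). Tlr4, the receptor for lipopolysaccharide, fell by 2.39, its adaptor Myd88 by 1.16, and Irf5, a factor downstream of Toll-like receptors, by 1.13. Tlr3, a receptor for double-stranded RNA, was -1.76 with its probe above background on 1 of 4 emodin arrays, and its adaptor Ticam1 was 1.12 higher. On the spike-in scale Ticam1 was 0.04 and not called. The other higher gene was Cgas, at 0.31 (adjusted p = 0.0176) against IL4, which turned to -0.77 on the spike-in scale. Tlr9 was 0.10 and not called, and -0.99 on the spike-in scale.

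Inhibitors of cytokine signalling included the largest differences of the pathway list. Socs1, a feedback inhibitor of Janus kinases, had log2 levels of -0.27, -0.19, -0.64 and 0.03 on the IL4 plus emodin arrays, 4.15, 4.34, 4.01 and 4.40 on the IL4 arrays and -0.69, -0.54, -0.69 and -0.71 on the control arrays. IL4 arrays stood far above both other groups, at 4.88 ± 0.13 (SE; adjusted p = 6.21e-10) against control, and emodin was -4.49 ± 0.13 (SE; adjusted p = 6.53e-10) from IL4. Socs3 was 1.14 higher in IL4 than in control and 1.46 higher with emodin than with IL4, a difference of 0.37 on the spike-in scale. Irf1, a factor that IL4 raised by 1.05, was -0.36 with emodin against IL4. Ptpn6, a phosphatase of cytokine receptors, was -1.58 with emodin against IL4.

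**Figure D5:**
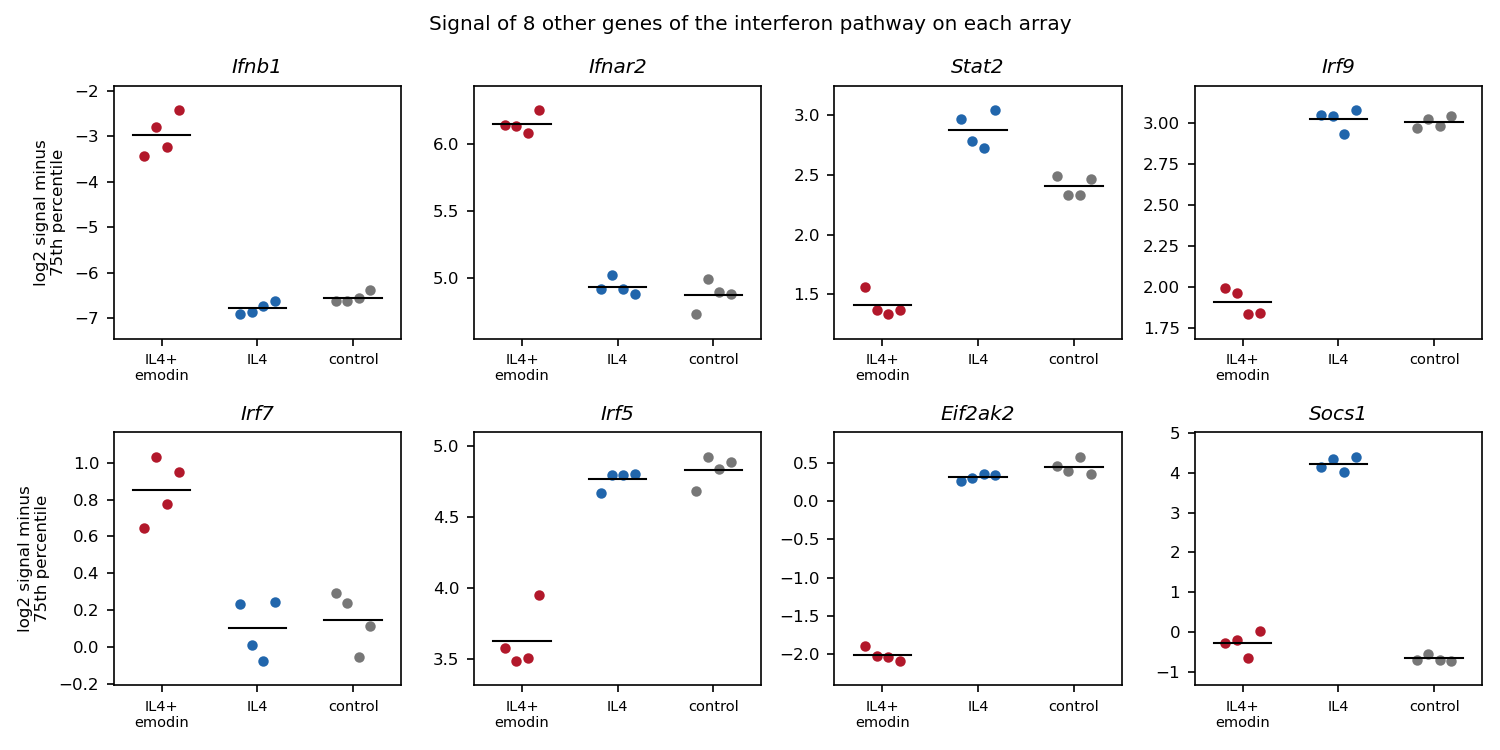
Log2 signal minus the array's 75th percentile (y axis, own range in each panel) of 8 other interferon pathway genes on the IL4 plus emodin, IL4 and control arrays (x axis, left to right); points are arrays, n = 4 a group, lines are means. Ifnb1 is not well above background on any IL4 or control array, and Stat2, Irf9, Irf5 and Eif2ak2 are lowest on the emodin arrays.

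Markers of other cells moved with emodin as well. Levels are given as the summed linear signal of a list, in units of the array's 75th percentile. The plasmacytoid dendritic cell list was at 232 to 322 on emodin arrays, 86.6 to 204 on IL4 arrays and 171 to 233 on control arrays. In it 4 of 4 tested genes were higher than with IL4, against 39.4% of all genes, Klk1 failing the filter. Marker values on the spike-in scale, which moved the median of all genes by -1.09 against IL4, are not given here. The B cell list was at 0.512 to 0.704 on emodin arrays, 1.26 to 2.28 on IL4 arrays and 1.12 to 2.47 on control arrays, with Pax5 above background on none. In that list Cd79b and Ms4a1 were lower than with IL4, and Fcer2a was higher, by 0.38. Genes of large peritoneal macrophages summed to 5.85 to 6.79 on emodin arrays, 9.79 to 11.9 on IL4 arrays and 9.84 to 10.9 on control arrays. Of the 5 genes Icam2 and Selp were lower than with IL4, F5 was higher, by 0.44, and Gata6 and Timd4 were not called. Conventional dendritic cell markers were at 0.287 to 0.39 on emodin arrays, 0.143 to 0.167 on IL4 arrays and 0.148 to 0.24 on control arrays, with Xcr1 on none. Zbtb46 was not called against IL4. The Clec9a probe was well above background on 4 emodin, 0 IL4 and 3 control arrays. It passed the filter through the emodin arrays alone, so no test of it is given. Emodin and IL4 arrays overlapped or touched in the lists for neutrophils, T cells (Cd3d, Cd3g and Cd8a on none), eosinophils (Epx and Prg2 on none), mast cells, mesothelial cells and macrophages. The part of these cells in the results was not tested.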

How the data were processed

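Total RNA of 12 samples was labelled with Cy3 and hybridised to 1-colour Agilent arrays. Per the file headers, the deposited scanner files hold intensity per spot, made with Agilent Feature Extraction 10.7.3.1 and corrected for background inside each array. The authors' deposited series table is in log2 units, and it matched a quantile-normalized, per-probe median-centred recomputation (correlation 1 on every array). The column medians of that table lay between -0.0078 and 0.0136, and it served as an alternative.

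Outlier spots and control spots were left out and spots of a probe averaged. Values were log2 intensity minus the array's 75th percentile. Probes were kept if all 4 arrays of 1 group or more had them well above background (27705 of 55681), and the brightest probe stood for a gene. Symbols came from matching transcript accessions to RefSeq (27509 probes with 1 symbol). The 32 matched genes had 43 probes, of which 41 passed, none saturated; 11 genes had 2 probes. The number of arrays limits the precision.

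R 4.3.3 with limma 3.58.1 fitted 3 group means on 12 arrays (9 residual degrees of freedom). The test was checked on simulated data. Genes got a value per array in the text where they were called, without overlap of the groups and with a log2 difference of at least 0.58 in size, or were the highest or lowest difference of their role group; other named genes are the rest of the list and pathway genes with a called difference of at least 1. Members and lists were chosen with earlier results of these data known. Oas1a, Isg20 and a few pathway genes below that size were added after their values were seen.

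Same-numbered IL4 and control samples deviated together from their group means (correlations 0.311 to 0.524), so the number was used as a block beside those results. In every group the number is also the slide column of the array, and the sex label follows it. A pairing of samples and a shared column therefore cannot be told apart. Alternatives were quantile and spike-in scaling, normexp correction on the median spot signal (offset 50), no filter, averaged probes, the sex label as a covariate, the 2 groups alone and each array left out. Figures were drawn with matplotlib 3.10.9.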

Additional observations from a re-analysis of the deposited data

Results flagged for a closer look

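In 8 of 93 groups of 4 arrays, 1 array lay far from the other 3 of its group by Dixon's test, where chance gives about 1 in 20. On emodin arrays, Ifi204 stood at 5.56 on replicate 3 and Trim25 at 7.67 on replicate 3. Ifitm3 stood at 6.39, Trim30a at 1.23 and Zbp1 at 1.36 on emodin replicate 1. Dhx58 stood at 0.70 on IL4 replicate 1. On control arrays, Oas1a stood at 6.53 on replicate 2 and Samhd1 at 4.90 on replicate 1. Trim30a on emodin replicate 1, Oas1a on control replicate 2 and Samhd1 on control replicate 1 were the high array of their group, and the 5 others were the low one. Without the array in question, the calls named in the report for Trim25, Trim30a, Zbp1, Samhd1 and Dhx58 stayed called in the same direction. So did Ifitm3 with emodin against IL4 and Oas1a with IL4 against control. Ifi204 against control lost its call without emodin replicate 3.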

How the results depend on the processing

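The 3 comparisons of the 31 genes were recomputed under 10 other settings and with each of the 12 arrays left out. For IL4 against control, 11 genes were called and 4 of them lower. Normexp with quantile scaling gave 17 called and 8 lower, spike-in scaling gave 1 lower and the replicate block gave 7 lower. Leaving out single arrays gave 2 to 5 lower. For emodin against IL4, the 4 higher genes became 1 on the spike-in scale. For emodin against control, the 2 higher genes became 1 with quantile scaling, with spike-in scaling, with normexp and quantile scaling, and in the deposited value table. The other counts of called genes stayed within 1.5 times. All sign changes in which either value was called came from spike-in scaling. The value without it was called for Ifit1, Ifitm3 and Isg20 against IL4 and for Bst2 against control, and not for the others. Against IL4 they were Bst2 at -1.0, Ifit1 at -0.55, Ifit2 at -1.07, Ifitm3 at -0.59, Isg20 at -0.66, Oas3 at -0.94, Oasl1 at -0.97 and Rsad2 at -0.92. Against control they were Bst2 at -0.67, Ifit1 at -0.81, Ifitm3 at -0.73, Isg20 at -0.87 and Oas1a at -0.82. Spike-in scaling moved the median of all genes by -1.09 against IL4, by -0.96 for emodin against control and by 0.13 for IL4 against control. Quantile scaling moved it by -0.14 in both emodin comparisons. Without a filter, which tests 37018 genes, it moved by 0.32 against IL4 and by 0.23 for emodin against control. The cause of these shifts was not tested. In the emodin comparisons the replicate numbers were not taken as pairs, since number 2 had a correlation of 0.093 with IL4 and 0.056 with control, while numbers 1, 3 and 4 had 0.309 to 0.437 with IL4 and 0.337 to 0.515 with control. The block there gave 26 called genes against IL4 (adding Oas1a and Rsad2) and 27 against control (adding Ifit2, Ifitm3, Usp18 and Zbp1), where the fit without it gave 24 and 23. All samples but emodin against control number 2 correlated best with their own number, as a hint from the data. That number is also the slide column of the array. With the sex label, 0 genes of the list were called under every setting run. Differences of Cmpk2 and Oas1g with emodin are limited by signal near background.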
